A study of Homo sapiens with 9 samples.

Results

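The genes described here lie on the short arm of chromosome 2, between and beside the 2 sites at which Cas9 guides were aimed to join *ALK* to an intergenic region next to *LOC388942*. The 54 members were taken by symbol from the 26364 gene names of the count table for their place on the chromosome. They were chosen with earlier results of these data known. On GRCh37, the build also called hg19, they run from *CLIP4* to *HAAO* over 13.7 Mb (chr2:29320571-43019733). All 54 were found in the table. Another 25 genes of the table lie in the same stretch and were not chosen.

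*ALK* encodes a receptor tyrosine kinase that is active in the developing nervous system and is nearly silent in adult lung epithelium. In some lung cancers a break in *ALK* joins the exons of its kinase domain to a partner that is transcribed and that brings kinase molecules together, most often *EML4*, a microtubule protein whose gene lies on the same chromosome arm. *STRN*, a scaffold of phosphatase complexes that also lies there, is another known partner. When both breaks fall on a single arm, the genes between them can be inverted, lost or left in place, so their transcripts are of interest beside those of the fused genes.

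The 9 RNA-seq libraries came from A549, an established human line derived from a lung adenocarcinoma and grown in RPMI medium with serum. The 2 control libraries had the wild-type genotype (WT). The 2 *LA* libraries carried sgLOC388942 and sgALK, the guides that gave the *LOC388942-ALK* (*LA*) fusion. The 3 sgScr libraries carried a scramble guide besides those 2 guides, and the 2 sgFOS libraries a guide against *FOS* besides them. According to the study's methods, A549 cells that already made Cas9 received the guides on lentiviral vectors with an mCherry reporter, and single cells were then grown into monoclonal strains in which the junction was read by Sanger sequencing. The *LA* libraries may thus stand for a single clone, and clonal differences from the control population cannot be told apart from those of the fusion. The labels do not state whether the sgScr and sgFOS cells came from the strain sequenced as *LA*, whether they were sequenced together with it, or whether replicates were separate cultures, so p-values measure the spread between these libraries, which may be technical. A549 is a line with extra copies of several chromosomes, and how many copies of chromosome 2 carry the junction is not given in the sources used here.

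The guides are shown because their cleavage sites divide the members into those left of, inside and right of the interval. All 3 matched the reference genome exactly and once, each next to an AGG PAM. They read, 5′ to 3′:
sgALK-1: gaccgaccgtgatcagatt
sgALK-2: ttcaattcattcgatcctc
sgLOC388942-3: tgcaatcttagatgtctgc
sgALK-1 matched the plus strand (chr2:29447518-29447536) and sgALK-2, the *ALK* guide named for the infected cells, the minus strand (chr2:29447547-29447565). Both lie in the *ALK* intron between exon 19 (chr2:29448327-29448431) and exon 20 (chr2:29446208-29446394). sgLOC388942-3 matched the minus strand (chr2:41492563-41492581) in no protein-coding gene. Below are 60 bases of the plus strand of the reference around the sites of sgALK-2 (chr2:29447520-29447579) and sgLOC388942-3 (chr2:41492536-41492595), in which capitals mark the PAM, here as its complement at the left, and the bases matched by the guide:
sgALK-2 site: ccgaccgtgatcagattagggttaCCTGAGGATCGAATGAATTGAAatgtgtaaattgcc
sgLOC388942-3 site: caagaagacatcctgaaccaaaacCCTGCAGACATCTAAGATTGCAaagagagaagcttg

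With cleavage 3 bases from the PAM, the cuts fall after positions 29447549 and 41492565, which leaves an interval of 12.05 Mb. These cuts are predicted from the guides. The breakpoints that the study read by Sanger sequencing in the A549 fusion lie near them, both inside this interval. *ALK* is on the minus strand (chr2:29415640-30144452), so its first exons lie inside the interval and its kinase exons lie left of the left cut. Of the members, 1 lies left of the interval (*CLIP4*), 1 is cut (*ALK*), 44 lie inside it from *YPEL5* to *SLC8A1*, and 8 lie to its right (*LOC388942*, *PKDCC*, *EML4*, *COX7A2L*, *KCNG3*, *MTA3*, *OXER1* and *HAAO*). *LOC388942* is a long noncoding RNA gene that the annotation calls *LINC01913* (chr2:42087295-42121190, plus strand). It starts 595 kb to the right of the cut and is not itself cut, while the nearest member on the left of that cut, the sodium-calcium exchanger gene *SLC8A1* (chr2:40324410-40838193, minus strand), ends 654 kb away. The primers used to detect the junction matched the plus strand at chr2:29447364-29447385, left of the *ALK* cut, and the minus strand at chr2:41493011-41493032, right of the other. They thus point at each other over the whole interval. If the outer flanks were joined at the predicted cuts, and not at the breakpoints read by the study, the primers would lie 653 bp apart. For the patient's tumour the study describes the fusion as an inversion on this chromosome. The arrangement of the bases between the cuts was not measured by these files.

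The authors deposited reads counted per gene, without normalization. Counts over a whole gene do not separate reads of a fusion transcript from other reads, and in bulk cells a smaller share of cells with a transcript cannot be told apart from less of it per cell. Totals ranged from 14507228 to 20456341 counts per library. Pairs of replicates were unequal: the chi-square statistic per degree of freedom between their counts was 134 for the controls and 62.3 for *LA*, against 1.76 to 2.72 within sgScr and sgFOS. The factors of TMM normalization ran from 0.799 in control replicate 1 to 1.07 in both *LA* libraries. Epithelial and metabolic genes typical of A549 had a high summed level in each library (8 genes, 18200 to 33700 CPM, counts per 1000000 reads with TMM scaling). *EPCAM*, an epithelial gene of that list, had only 49 to 275 counts. *CDKN2A*, deleted in A549, had 0 or 1 counts, and its neighbour *MTAP*, listed as deleted too, had 133 to 269. Summed levels were 7.18 to 18.5 CPM for 6 fibroblast genes and 0.732 to 4.65 for 5 NKX2-1 and surfactant genes. They were 0.246 to 2.18 for 4 neural crest genes and 0 to 1.06 for 3 endothelial genes. Of the leukocyte genes (summed level 8.12 to 42.6 CPM), *PTPRC* and *CD3E* were at 0 throughout, whereas CD14 had 659 and 494 counts in the controls, 252 and 248 in *LA*, and 122 to 186 in sgScr and sgFOS. CD14 thus differed between the controls and the fusion libraries, and its part in the results was not tested.

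*ALK* was barely detected. It had 0 and 0 counts in the controls, 2 and 15 in *LA*, 4, 1 and 3 in sgScr, and 2 and 0 in sgFOS. *LA* replicate 2 stood above all other libraries, and the other *LA* library overlapped the range of sgScr and sgFOS. In CPM this was 0 in both controls, 0.123 and 0.838 in *LA*, 0.0486 to 0.19 in sgScr, and 0.136 and 0 in sgFOS. A count of 0 allows up to 3 counts in a library. With each control library set to that limit and the libraries of a group pooled, the *LA* level exceeded the control limit by at least 2.69-fold. The bound was 4.54 without *LA* replicate 1, and without *LA* replicate 2 no fold can be given. *ALK* did not pass the filter on low counts (8 members did not). In edgeR's quasi-likelihood test without the filter, its difference between *LA* and control had an adjusted p of 0.08. For sgScr against *LA* the ratio of *ALK* counts was 0.272 (95% exact interval 0.102 to 0.666, counting error only), with an edgeR adjusted p of 0.244 without the filter. Of the 17 *LA* counts 15 were in *LA* replicate 2, and the 0.123 CPM of *LA* replicate 1 lay within the range of sgScr. All 3 sgScr libraries were labelled as carrying the fusion, and 2 of them were at or under 3 counts.

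*LOC388942*, the gene that names the fusion, was low as well. It had 8 and 2 counts in the controls, 0 and 1 in *LA*, 7, 11 and 6 in sgScr, and 3 and 9 in sgFOS. Both *LA* libraries lay below all others, but control replicate 2 too was under 3 counts. Of the 10 control counts 8 were in control replicate 1, and *LA* had 1 count in all. The *LOC388942* ratio of *LA* to control was 0.0949 (95% exact interval 0.00219 to 0.667, counting error only), and that of sgScr to *LA* 13.9 (2.26 to 571). Neither passed edgeR's quasi-likelihood test without the filter (adjusted p of 0.356 and 0.0587). For sgScr against control the ratio was 1.32 (0.607 to 3.09), an interval that includes no difference.

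*SLC8A1* passed the filter with 7 and 8 counts in the controls, 21 and 20 in *LA*, 35, 38 and 24 in sgScr, and 19 and 24 in sgFOS. All fusion libraries were above both controls. Its log2 fold change was 1.34 (SE 0.83, edgeR adjusted p = 0.258) in *LA* against control and 1.82 (SE 0.36, edgeR adjusted p = 0.013) in sgScr against control. Its annotated transcript is the longest of the members (21116 bases). The corrected values, here and below, have the trend of counts with transcript length and GC content removed from each library. Corrected, these log2 fold changes were -0.12 and 0.39, neither past the threshold. The first depended on the transcript chosen. With the median instead of the canonical transcript length it was 0.81 (edgeR adjusted p = 0.451).

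**Figure D1:**
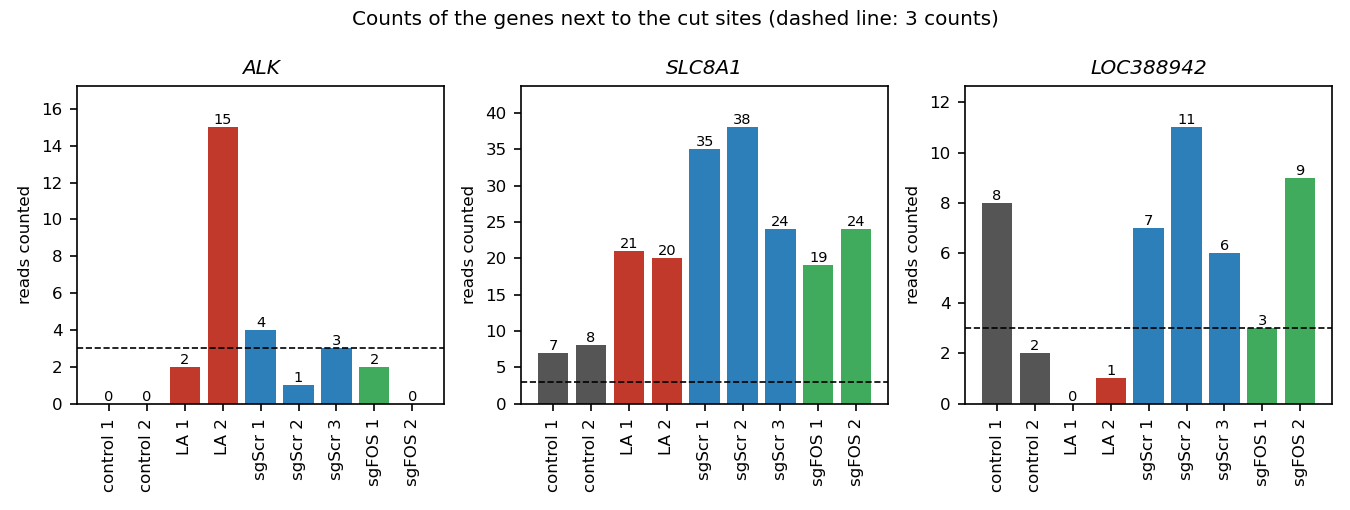
Bars give the reads counted (y axis, linear from 0) in each of the 9 libraries (x axis) for *ALK*, *SLC8A1* and *LOC388942*, with the count printed above each bar and a dashed line at 3 counts. *ALK* reaches 15 counts in *LA* replicate 2 only, *SLC8A1* is above both controls in all 7 fusion libraries, and *LOC388942* is lowest in the 2 *LA* libraries.

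The other members under the filter were at most 4 counts in any library. *CAPN13*, a calpain protease gene, and *VIT*, which encodes a matrix protein, had 0 counts in all 9 libraries. *SRD5A2*, the steroid 5-alpha reductase, had 0 and 2 counts in the controls and 3 and 2 in *LA*, and was at 0 in the other 5 libraries. *ARHGEF33* had 0 to 4 counts. *OXER1*, a receptor for oxidised fatty acids, and *HAAO*, an enzyme of tryptophan breakdown, had at most 1 and 2 counts. No fold is given for these 6 members.

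Levels of different genes can be compared per length. In CPM per kilobase of transcript, the highest members in the controls were *DPY30* (135), *SRSF7* (110) and *COX7A2L* (57.0), and in *LA* *CRIM1* (116), *LBH* (115) and *SRSF7* (42.9). In sgScr they were *CRIM1* (97.9), *SRSF7* (71.3) and *EML4* (53.9). *SRSF7* encodes a splicing factor and *DPY30* a core subunit of the histone H3 lysine methyltransferase complexes, and both are used by most cells. *CRIM1*, a membrane protein that binds bone morphogenetic proteins, had 161 and 252 CPM in the controls and 685 and 723 in *LA*. *EML4* was at 106 and 157 CPM in the controls, 238 and 162 in *LA*, 294 to 301 in sgScr, and 253 in both sgFOS libraries. Per kilobase, *ALK* was at 0.077 CPM in *LA*, the lowest tested member *SLC8A1* at 0.057 and *EML4* at 36.1.

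As counted, the members inside the interval lay on both sides of the control mean in each fusion library. Their median log2 difference from the control mean was -0.28 in control replicate 1 and 0.28 in control replicate 2, 0.19 and 0.13 in *LA*, -0.17 to -0.08 in sgScr, and 0.07 and 0.05 in sgFOS. All 7 fusion libraries thus lay between the 2 controls. In corrected values the same medians were -0.0068 and 0.0068 in the controls, -0.24 and -0.2 in *LA*, -0.39 to -0.32 in sgScr, and -0.25 and -0.17 in sgFOS, so that all fusion libraries lay below both controls. To the right of the interval (5 members tested), corrected medians were -0.049 and 0.049 in the controls, -0.48 and -0.83 in *LA*, -0.4 to -0.025 in sgScr, and -0.33 and -0.32 in sgFOS. Over all genes tested, corrected medians ran from -0.045 to 0.0094. Differences were taken from the mean of the 2 controls, so the control medians mirror each other by construction. The members tested had a median transcript length of 4069 bases, against 3173 over all genes with a length. The medians by library were not tested, nor was the part of the correction in them.

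**Figure D2:**
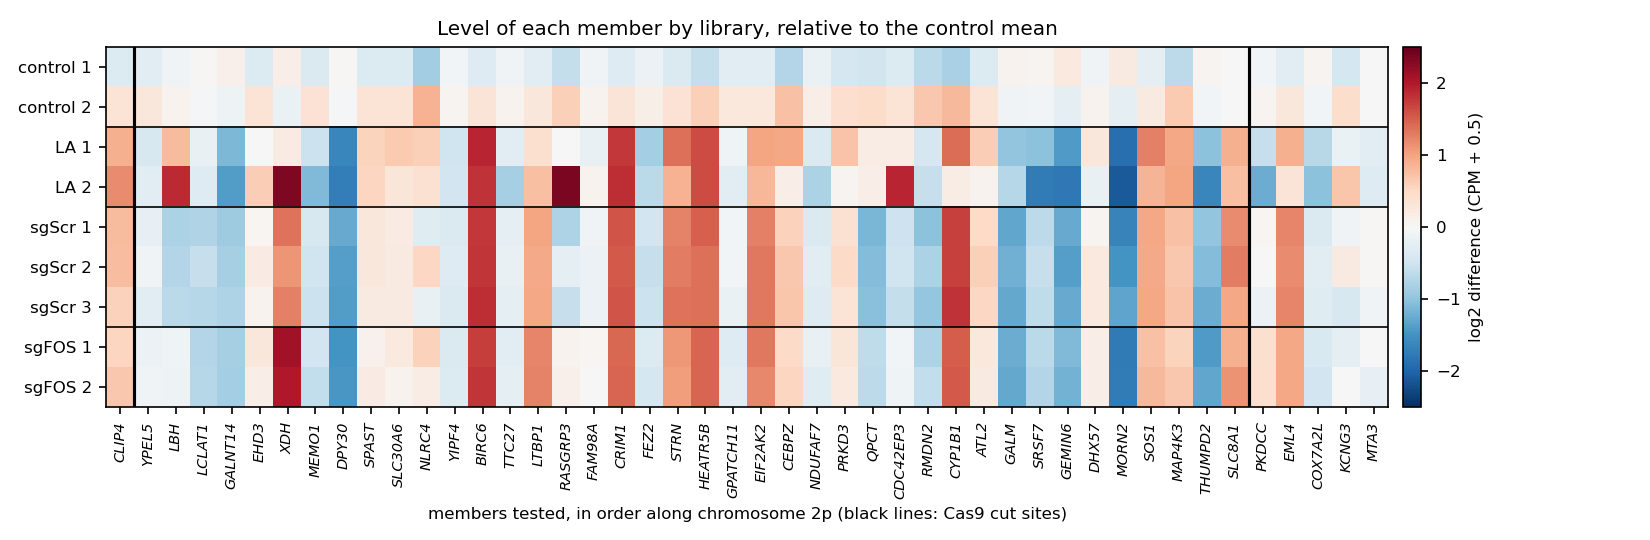
Colour gives the log2 difference of CPM (with 0.5 added) from the mean of the 2 controls, for the 46 members tested (x axis, in order along the chromosome) in each of 9 libraries (y axis), black vertical lines mark the cut sites, and values beyond the ends of the colour scale take its end colours. Blue and red columns alternate inside the interval (for example *MORN2* and *BIRC6*), control replicate 1 and 2 differ from each other over most members, and *LBH*, *XDH*, *RASGRP3* and *CDC42EP3* are highest in *LA* replicate 2.

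The first comparison asked what differed between *LA* and control cells. Each comparison was fitted over all genes with edgeR's quasi-likelihood test, and a member was called at a Benjamini-Hochberg adjusted p under 0.05. Of 46 members tested, 4 rose in *LA* (*BIRC6*, *CRIM1*, *HEATR5B* and *LBH*) and 6 fell (*DPY30*, *GALNT14*, *GEMIN6*, *MORN2*, *SRSF7* and *THUMPD2*). All 10 lie inside the interval, as do 40 of the 46 members tested. Over all 14425 genes tested, 9.57% rose, 9.94% fell and 19.5% changed either way, against 21.7% of the members, so the share of called members was near that of all genes. The median log2 fold change was 0.28 over the members, 0.044 over all genes and 0.17 over the rest of chromosome 2. It was 0.3 for the 40 members tested inside the interval and -0.33 for the 5 to its right. *LA* and control did not overlap for 30 of 46 members (65.2%, and 63.8% of all genes).

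Of the 6 members that fell in *LA*, 3 act in RNA handling and 1, *DPY30*, in chromatin. *MORN2*, a small protein with MORN repeats, had 476 and 382 counts in the controls, 111 and 103 in *LA*, 166, 185 and 177 in sgScr, and 109 and 112 in sgFOS. The controls stood above every fusion library. It was 4.29-fold lower in *LA* (log2 fold change -2.1, SE 0.46, edgeR adjusted p = 0.00343), the largest fall among the members as counted. Corrected, it was -1.28 (SE 0.32, edgeR adjusted p = 0.0327), behind *GEMIN6* at -2.01, *YIPF4* at -1.69, *SRSF7* at -1.4 and *THUMPD2* at -1.32.

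*DPY30* had 1456 and 1548 counts in the controls, 484 and 494 in *LA*, 612 to 806 in sgScr, and 481 and 503 in sgFOS. The control and fusion libraries did not overlap. It was 3.29-fold lower in *LA* (log2 fold change -1.72, SE 0.4, edgeR adjusted p = 0.00513). Its transcript is the shortest of the members (688 bases), and corrected it was -0.86 (SE 0.24, edgeR adjusted p = 0.0442).

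Of 8 tested members with roles in RNA and translation, 3 fell in *LA* and none rose, beside the 9.94% of all genes that fell. These members form 1 of several role groups, most of which are not described. *GEMIN6*, a part of the SMN complex that assembles spliceosomal particles, had 875 and 678 counts in the controls, 287 and 241 in *LA*, 339 to 414 in sgScr, and 323 and 312 in sgFOS. *SRSF7* had 4206 and 4155 counts in the controls, 2054 and 1361 in *LA*, 2890 to 3587 in sgScr, and 2378 and 2331 in sgFOS. *THUMPD2*, an RNA methyltransferase, had 568 and 564 counts in the controls, 275 and 195 in *LA*, 254 to 368 in sgScr, and 189 and 210 in sgFOS. In each of the 3 genes both controls were above all 7 fusion libraries. Their log2 fold changes in *LA* were -1.65 (SE 0.43, edgeR adjusted p = 0.00992), -1.37 (SE 0.42, adjusted p = 0.0231) and -1.35 (SE 0.43, adjusted p = 0.0312). With library size alone *GEMIN6* was still called (-1.35, edgeR adjusted p = 0.0473), and *SRSF7* (-1.09, adjusted p = 0.0767) and *THUMPD2* (-1.06, adjusted p = 0.109) were not. The other 5 (*TTC27*, *FAM98A*, *GPATCH11*, *CEBPZ* and *DHX57*) lay between -0.56 and 0.41 and were not called. In sgFOS against sgScr, only *FAM98A* (higher) and *CEBPZ* (lower) of these 8 members were called.

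*GALNT14*, an enzyme that starts O-linked glycosylation, had 1051 and 963 counts in the controls, 460 and 418 in *LA*, 628 to 716 in sgScr, and 515 and 514 in sgFOS. It was 2.45-fold lower in *LA* (log2 fold change -1.29, SE 0.41, edgeR adjusted p = 0.0289). The control libraries were again the highest. With library size alone it was -1.0 and not called (edgeR adjusted p = 0.107).

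Among the members that rose in *LA*, *BIRC6*, a very large ubiquitin-conjugating inhibitor of apoptosis, had 687 and 1191 counts in the controls, 3424 and 3502 in *LA*, 3505 to 4026 in sgScr, and 2737 and 2929 in sgFOS. Fusion libraries were all above the controls, and the 2 controls differed by a larger ratio than the libraries of any fusion group. It was 3.47-fold higher (log2 fold change 1.79, SE 0.41, edgeR adjusted p = 0.00486). Corrected, it was 0.54 (SE 0.24, edgeR adjusted p = 0.167) and no longer called, its transcript being 15687 bases long.

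*CRIM1* had 2499 and 4276 counts in the controls, 11160 and 12938 in *LA*, 10456 to 12517 in sgScr, and 8107 and 8301 in sgFOS. No fusion library overlapped the controls. It was 3.33-fold higher in *LA* (log2 fold change 1.74, SE 0.43, edgeR adjusted p = 0.00742), and corrected 1.07 (SE 0.27, edgeR adjusted p = 0.0362).

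*LBH*, a transcription cofactor of the WNT response, had 1810 and 2260 counts in the controls, 3505 and 8162 in *LA*, 1358 to 1549 in sgScr, and 1693 and 1706 in sgFOS. It was high in *LA* alone, and *LA* replicate 2 had more than 2 times the counts of the other *LA* library. Its log2 fold change in *LA* against control was 1.39 (SE 0.43, edgeR adjusted p = 0.0265), 1.36 with the correction, and 0.78 without *LA* replicate 2, when it was not called.

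*HEATR5B*, a protein of clathrin-linked membrane traffic, had 134 and 350 counts in the controls, 693 and 759 in *LA*, 619 to 809 in sgScr, and 553 and 568 in sgFOS. Its log2 fold change was 1.5 (SE 0.46, edgeR adjusted p = 0.0244), and corrected 0.73 (SE 0.31, edgeR adjusted p = 0.15). The 2 controls differed by more than 2 times in this gene.

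The partner genes of *ALK* on this arm did not pass the test in *LA*. *EML4* had 1636 and 2661 counts in the controls, 3884 and 2900 in *LA*, 5237 to 6335 in sgScr, and 3737 and 3801 in sgFOS, and *STRN* 401 and 729, 1417 and 1095, 1510 to 1682, and 1047 and 1040 in the same order. Both were higher in every fusion library than in either control. In *LA* against control their log2 fold changes were 0.58 (SE 0.41) for *EML4* and 1.08 (SE 0.42) for *STRN*, with edgeR adjusted p of 0.33 and 0.0709, and corrected they turned to -0.098 and -0.16. *CLIP4*, a microtubule-binding protein and the only member left of the cuts, had 574 and 1029 counts in the controls, 1441 and 1954 in *LA*, 1242 to 1730 in sgScr, and 1025 and 1145 in sgFOS (log2 fold change 0.98, SE 0.41, edgeR adjusted p = 0.0888). *PKDCC*, a secreted tyrosine kinase and the first protein-coding member to the right, had 386 and 464 counts in the controls, 282 and 194 in *LA*, 412 to 568 in sgScr, and 514 and 524 in sgFOS (log2 fold change -0.92, SE 0.44, edgeR adjusted p = 0.14).

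Several members with large fold changes were unequal between the *LA* replicates and were not called. *XDH*, which ends purine breakdown, had 21 and 131 counts in *LA* against 19 and 15 in the controls. *RASGRP3*, an exchange factor for RAS proteins, had 15 and 122 against 7 and 28. *CDC42EP3*, an effector of the GTPase CDC42, had 828 and 2987 against 539 and 956, with 510 to 644 in sgScr and 625 and 615 in sgFOS. In all 3 the high value was *LA* replicate 2, the library with 15 *ALK* counts. The 2 *LA* libraries were unequal well beyond these genes (chi-square per degree of freedom 62.3), and a link with *ALK* was not tested.

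The fold changes followed transcript length. Over the 46 members, the Spearman correlation of log2 fold change with transcript length was 0.743 in *LA* against control, and over the 14161 genes with a length it was 0.574, given as a description across genes, which are not independent replicates. The median transcript length was 6498.5 bases for the 4 members that rose and 2280.5 for the 6 that fell. Between the 2 control libraries alone, the difference of replicate 2 from replicate 1 had a correlation of 0.349 with length, whereas it was -0.0306 between the *LA* libraries. The part of RNA quality or library preparation in this was not tested. With the correction, the correlation was 0.382 over the members and 0.0778 over all genes. In sgScr against control it was 0.768 over the members and 0.59 over all genes, and corrected 0.421 and 0.071.

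In corrected values 2 members rose in *LA* (*CRIM1* and *LBH*) and 7 fell, the same 6 as before and *YIPF4*, a Golgi protein, against 5.28% and 5.97% of all genes and 11.2% either way. *YIPF4* had 991 and 1187 counts in the controls, 769 and 852 in *LA*, 902 to 1104 in sgScr, and 763 and 795 in sgFOS. It is annotated with a transcript of 11955 bases, and its log2 fold change of -0.52 (edgeR adjusted p = 0.359) became -1.69 (SE 0.26, edgeR adjusted p = 0.00755). The corrected value rests on that annotated length, and its value with the median transcript length is not given here. The corrected median over the members was -0.16 (all genes -0.033, rest of chromosome 2 -0.042). Direction turned for 11 members, from between 0.05 and 1.34 to between -0.53 and -0.069. With the median instead of the canonical transcript length, an alternative chosen after the data were seen, the median was -0.31. Scaling by library size alone moved the median of all genes from 0.044 to 0.33 the calls over all genes from 1380 higher and 1434 lower to 1599 and 680, and those of the members to 4 higher and 3 lower.

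When *LA* replicate 1 or *LA* replicate 2 was left out, edgeR called 0 members, with 14 and 6 at an unadjusted p under 0.05, in a fit of 1 library against 2. The log2 fold changes were then 1.71 and 1.87 for *BIRC6*, 1.74 and 1.73 for *CRIM1*, -2.26 and -1.96 for *MORN2*, and -1.8 and -1.64 for *DPY30*, near those with both *LA* libraries, while those of *LBH* were 1.81 and 0.78. Without control replicate 1 or control replicate 2, the log2 fold change was 1.46 and 2.11 for *BIRC6*, 1.41 and 2.04 for *CRIM1*, and -1.91 and -2.38 for *MORN2*.

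The sgScr libraries were set against the same 2 control libraries, so this comparison is not independent of the first and the values are given side by side. Of 46 members, 11 rose in sgScr (*BIRC6*, *CRIM1*, *CYP1B1*, *EIF2AK2*, *EML4*, *HEATR5B*, *LTBP1*, *SLC8A1*, *SOS1*, *STRN* and *XDH*) and 11 fell (*DPY30*, *FEZ2*, *GALM*, *GALNT14*, *GEMIN6*, *LBH*, *LCLAT1*, *MORN2*, *QPCT*, *SRSF7* and *THUMPD2*). Over all 14482 genes, 19.8% rose, 21.7% fell and 41.5% changed, against 47.8% of the members. The groups did not overlap for 32 of 46 members (69.6%, and 69.2% of all genes). The median over the members was -0.12, beside 0.28 in *LA* against control. It was 0.019 over all genes, which scaling by library size alone moved to 0.2, with 9 members then higher and 7 lower, and 3002 and 2277 of all genes.

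*BIRC6* was 3.43-fold higher in sgScr than in control (log2 fold change 1.78, SE 0.24, edgeR adjusted p = 0.00665), beside 1.79 in *LA*. *CRIM1* was 2.88-fold higher (1.53, SE 0.23, edgeR adjusted p = 0.00797), beside 1.74. *MORN2* was 2.92-fold lower (-1.55, SE 0.2, edgeR adjusted p = 0.0064), beside -2.1. Corrected, these sgScr values were 0.57 (SE 0.11), 0.87 (SE 0.15) and -0.95 (SE 0.18), all still called, beside 0.54, 1.07 and -1.28 in *LA*.

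*EML4* was 2.28-fold higher in sgScr (log2 fold change 1.19, SE 0.21, edgeR adjusted p = 0.0106) and was still called with the correction (0.51, SE 0.083, edgeR adjusted p = 0.00624). *STRN* had a log2 fold change of 1.27 (SE 0.25, edgeR adjusted p = 0.0134) that the correction reduced to 0.044. *SOS1*, an exchange factor that activates RAS, had 520 and 787 counts in the controls, 1545 and 1281 in *LA*, 1351 to 1623 in sgScr, and 976 and 1053 in sgFOS. *EIF2AK2*, a kinase that senses double-stranded RNA, had 399 and 638 counts in the controls, 1007 and 991 in *LA*, 1371 to 1621 in sgScr, and 1161 and 1085 in sgFOS. In both genes the controls were the lowest libraries. With the correction *SOS1* went from 0.95 (SE 0.19, edgeR adjusted p = 0.0138) to 0.024, and *EIF2AK2* from 1.29 (SE 0.21, edgeR adjusted p = 0.0091) to 0.26. *LTBP1*, which holds latent TGF-beta in the matrix, had 195 and 322 counts in the controls, 334 and 473 in *LA*, 536 to 655 in sgScr, and 544 and 559 in sgFOS. It went from 0.96 to 0.33, and *HEATR5B* from 1.32 to 0.55. All 5 lost their call with it, and all have transcripts of 6502 bases or more.

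*CYP1B1*, a cytochrome P450 that oxidises oestrogens and polycyclic hydrocarbons, had 571 and 1968 counts in the controls, 2816 and 1335 in *LA*, 3982 to 4523 in sgScr, and 2785 and 2865 in sgFOS. The 2 controls differed by more than 3 times. Its log2 fold change in sgScr was 1.52 (SE 0.48, edgeR adjusted p = 0.0458), and 0.99 corrected (edgeR adjusted p = 0.0496), while in *LA* it was 0.67 (SE 0.49, edgeR adjusted p = 0.352). Its exons overlap those of *CYP1B1-AS1* on the other strand over 288 bp, and the strand setting of the counting is not given in the sources used here.

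*XDH* had 73, 58 and 56 counts in sgScr against 19 and 15 in the controls. It was 3.02-fold higher (log2 fold change 1.6, SE 0.29, edgeR adjusted p = 0.0111) and 1.01 corrected (SE 0.29, edgeR adjusted p = 0.0353). *LBH* was 1.66-fold lower in sgScr than in control (log2 fold change -0.73, SE 0.14, edgeR adjusted p = 0.0133), the opposite side to *LA*.

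With the correction, 5 members rose in sgScr and 21 fell, against 17.7% and 20.6% of all genes and 38.4% either way, with a median of -0.39 (all genes -0.017, rest of chromosome 2 -0.043). It was -0.39 inside the interval and -0.37 to its right, that is, on either side of the right cut. With the median transcript length, it was -0.34. When any of the 3 sgScr libraries was left out, 0 members were called by edgeR (21 at an unadjusted p under 0.05 each time), with log2 fold changes of 1.75 to 1.8 for *BIRC6* and 1.23 to 1.3 for *STRN*, beside 1.78 and 1.27 with all 3. Without control replicate 1 or control replicate 2, the log2 fold change was 1.48 and 2.15 for *BIRC6*, and 0.94 and 1.68 for *STRN*.

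**Figure D3:**
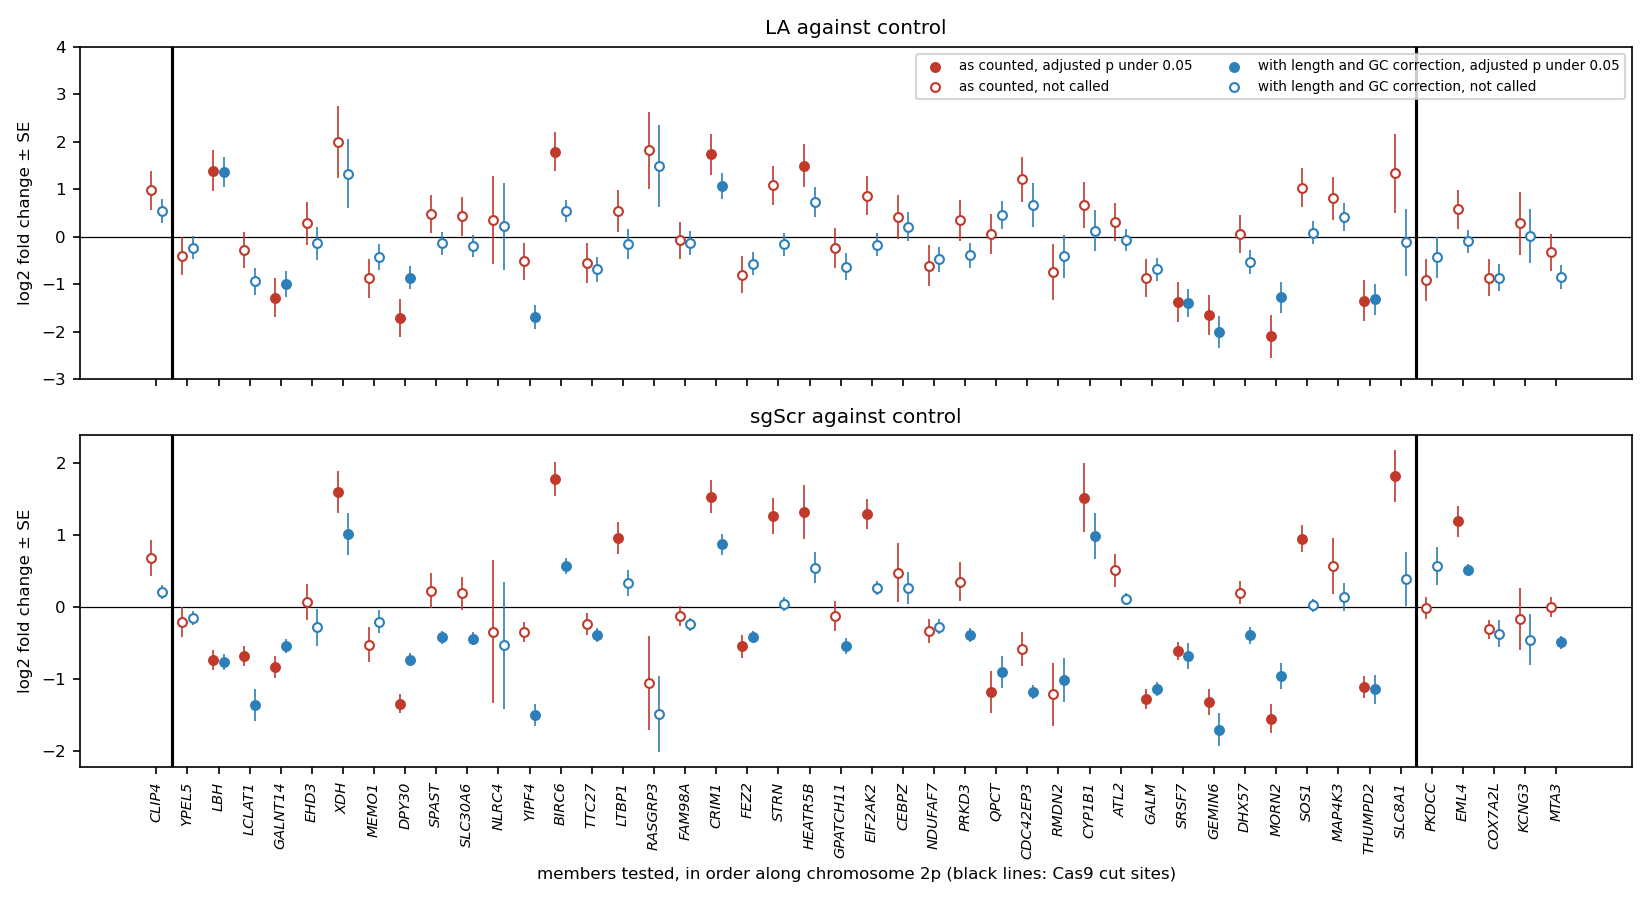
Points give log2 fold changes with their SE (y axis) for the 46 members tested in order along the chromosome (x axis), in *LA* against control above and sgScr against control below, red as counted and blue corrected for length and GC content, filled where the adjusted p was under 0.05. Both panels use the same 2 control libraries. High values of *BIRC6*, *STRN*, *EIF2AK2*, *SOS1* and *SLC8A1* shrink with the correction, those of *GEMIN6*, *SRSF7* and *THUMPD2* stay low, and vertical lines mark the cut sites.

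The third comparison asked which members differed between sgFOS and sgScr cells, both of which carry the fusion guides by label. These libraries were the most alike within groups. Of 46 members, 8 rose in sgFOS (*CDC42EP3*, *FAM98A*, *FEZ2*, *LBH*, *LTBP1*, *PKDCC*, *QPCT* and *XDH*) and 7 fell (*ATL2*, *CEBPZ*, *CRIM1*, *CYP1B1*, *EML4*, *SOS1* and *STRN*). Over all 14196 genes, 12.2% rose, 10.5% fell and 22.7% changed, against 32.6% of the members. The median over the members was -0.035 (all genes -0.0015). The groups did not overlap for 27 of 46 members (58.7%, and 48.5% of all genes).

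The called changes were small. *XDH* had 91 and 85 counts in sgFOS against 73, 58 and 56 in sgScr, and was 1.87-fold higher (log2 fold change 0.9, SE 0.18, edgeR adjusted p = 0.000281). *LBH* was 1.53-fold higher (0.61, SE 0.044, edgeR adjusted p = 1.44e-13), with 115 and 114 CPM in sgFOS and 71.9 to 78.0 in sgScr. *PKDCC* had 514 and 524 counts in sgFOS and 412 to 568 in sgScr, which at the depth of each library is 34.8 and 34.9 CPM against 23.7 to 27.0 (log2 fold change 0.44, SE 0.073, edgeR adjusted p = 1.44e-05). *QPCT*, which forms pyroglutamate at the ends of secreted peptides, and *CDC42EP3* had a log2 fold change of 0.46 each.

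All 4 tested members with roles in the matrix or as secreted proteins were called, beside 22.7% of all genes, 3 higher (*LTBP1*, *QPCT* and *PKDCC*) and *CRIM1* lower (-0.1, SE 0.033, edgeR adjusted p = 0.0221). With the median transcript length the 3 were called and *CRIM1* was not. Of these 4 members, only *CRIM1* was called in *LA* against control, where it was higher. The 7 members that fell ranged from -0.29 for *ATL2*, a GTPase that fuses endoplasmic reticulum tubules, to -0.1. *EML4* was at -0.24 (SE 0.035, edgeR adjusted p = 2.63e-06) and *STRN* at -0.23 (SE 0.049, edgeR adjusted p = 0.000346). *CEBPZ*, a ribosome assembly factor, had 550 and 1655 counts in the controls, 1865 and 1181 in *LA*, 1658 to 1945 in sgScr, and 1221 and 1294 in sgFOS. It was at -0.13 and lost its call with the correction. Its exons overlap those of *CEBPZOS* on the other strand over 267 bp. *SLC8A1* was at -0.18 (SE 0.31), *CLIP4* at -0.1 (SE 0.054), and neither was called.

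The correction mattered little here. It kept 14 of the 15 calls and left 19.6% of all genes called (9.0% higher, 10.6% lower), and the members' correlation with transcript length was -0.154. *LCLAT1*, *SLC30A6*, *EIF2AK2* and *GALM* turned direction with it, from values between -0.047 and 0.0056, none of them called. *LCLAT1*, an acyltransferase of cardiolipin, had 750 to 981 counts in sgScr and 635 and 654 in sgFOS. The zinc transporter gene *SLC30A6* had 1110 to 1320 and 951 and 869, and *GALM*, the galactose mutarotase, 518 to 643 and 453 and 443. Sums of reads were lower in the sgFOS libraries, so that these counts do not compare as they stand. When all 9 libraries shared 1 estimate of the spread, edgeR called 0 members, with 1 at an unadjusted p under 0.05.

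**Figure D4:**
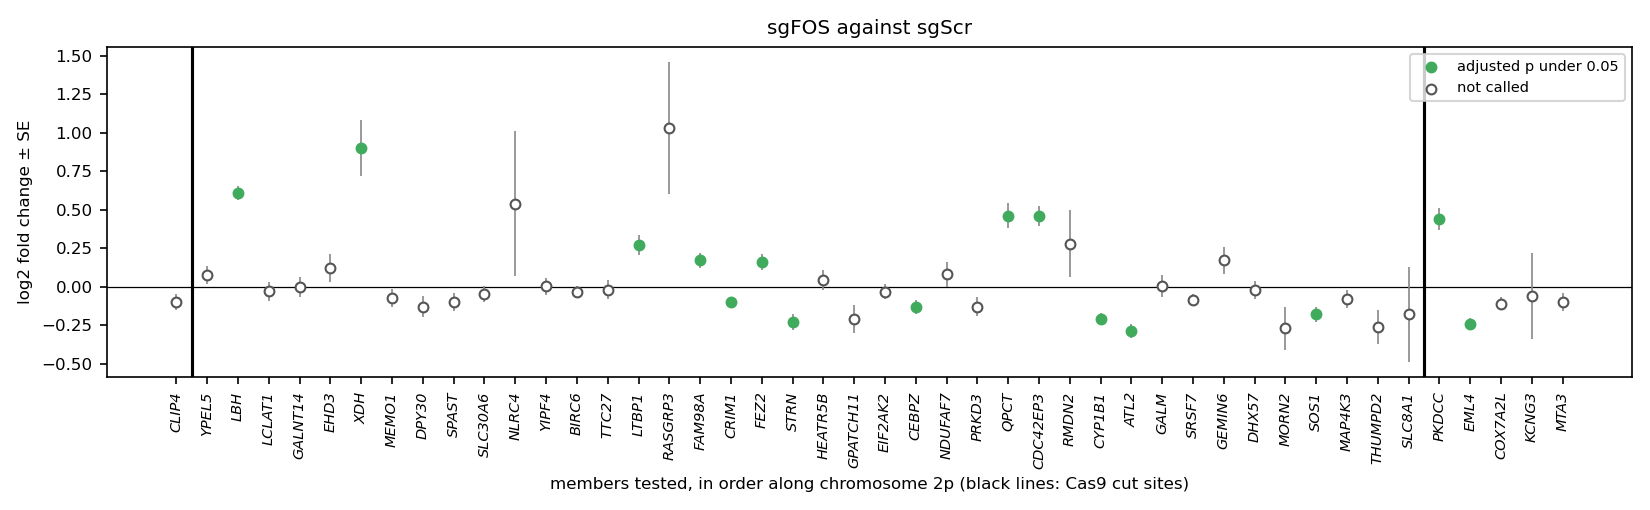
Points give the log2 fold change with its SE (y axis) of the 46 members tested, in order along the chromosome (x axis), in sgFOS (2 libraries) against sgScr (3 libraries), green where the adjusted p was under 0.05 and open otherwise. *XDH*, *LBH*, *QPCT*, *CDC42EP3* and *PKDCC* lie highest among the called members, and all but *RASGRP3* lie between -0.29 and 0.9.

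The last comparison set sgScr against *LA*, both labelled with the fusion. Of 46 members, 3 were higher in sgScr (*COX7A2L*, *EIF2AK2* and *PKDCC*) and 7 lower (*CDC42EP3*, *GALM*, *LBH*, *LCLAT1*, *MAP4K3*, *QPCT* and *SPAST*), beside 10.6%, 12.3% and 22.9% (either way) of 14521 genes, and 21.7% of the members. The groups did not overlap for 31 of 46 members (67.4%, and 56.7% of all genes). Members thus differed between the 2 groups of fusion cells about as often as all genes did. The scramble guide and any difference of clone or culture cannot be told apart here. In corrected values 5 members were higher and 7 lower, 7 of them called in both, against 14.8%, 13.4% and 28.2% of all genes.

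*LBH* was lower in sgScr by the most among the called members (log2 fold change -2.18, SE 0.29, edgeR adjusted p = 0.00683), followed by *CDC42EP3* (-1.86, SE 0.44, edgeR adjusted p = 0.0319), whose high value is that of *LA* replicate 2. *QPCT* had 778 and 843 counts in *LA*, 396, 405 and 350 in sgScr, 471 and 991 in the controls, and 398 and 398 in sgFOS. Its *LA* libraries were alike and stood above sgScr (log2 fold change -1.3, SE 0.092, edgeR adjusted p = 0.00167). *PKDCC* was higher in sgScr (0.85, SE 0.21, edgeR adjusted p = 0.035), while its log2 fold change in sgScr against control was -0.016 (SE 0.15), or 0.57 corrected. *COX7A2L*, which joins respiratory chain complexes, had 2116 and 2094 counts in the controls, 1315 and 1145 in *LA*, 1829 to 2216 in sgScr, and 1480 and 1399 in sgFOS (0.51, SE 0.12, edgeR adjusted p = 0.0309).

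To the right of the interval, the median of the 5 tested members in sgScr against *LA* was 0.51, beside 0.045 inside it and -0.016 over all genes. *EML4* was at 0.56 (SE 0.16, edgeR adjusted p = 0.0562) and with the correction at 0.61 (edgeR adjusted p = 0.0202). *KCNG3*, a potassium channel subunit, was at -0.5 (SE 0.4). *SPAST*, which severs microtubules, had 466 and 827 counts in the controls, 927 and 996 in *LA*, 776 to 981 in sgScr, and 613 and 662 in sgFOS. *MAP4K3*, a kinase of nutrient sensing, had 258 and 722, 857 and 957, 767 to 939, and 586 and 646 in the same order. They lost their calls with the correction, as did *PKDCC*. Without *LA* replicate 1 or *LA* replicate 2, the log2 fold change was 0.43 and -0.091 for *STRN*, beside 0.14 with both. For *BIRC6* it was -0.0037 and -0.12, beside -0.073. Leaving out sgScr replicate 1, sgScr replicate 2 or sgScr replicate 3 lowered the members called to 2, 1 and 1.

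Other genes of the *ALK* pathway were read from a list of 14 ligands, receptors, adaptors and effectors outside the chromosome 2p stretch, of which 9 passed the filter. The ligand genes *ALKAL1* and *ALKAL2* were under it, *PTN* had 0 counts throughout, and *MDK*, a growth factor also proposed as a ligand, had a log2 fold change of -1.45 in *LA* (SE 0.55, edgeR adjusted p = 0.0651). In *LA* against control, 3 of 9 rose and none fell, beside 9.57% and 9.94% of all genes: *IRS1* (2.02, SE 0.42, edgeR adjusted p = 0.00278), *PTPN11* (1.43, adjusted p = 0.0205) and *FRS2* (1.38, adjusted p = 0.0312). *IRS1* and *FRS2* are docking proteins of tyrosine kinase receptors and *PTPN11* is the phosphatase SHP2. With the correction *IRS1* alone remained called (1.11, SE 0.28, edgeR adjusted p = 0.0341), beside 5.28% of all genes that rose. In sgScr against control 6 of 9 rose, beside 19.8% of all genes. With the correction 4 of them did (*CRKL*, *IRS1*, *PTPN11* and *SHC1*), beside 17.7%. In sgFOS against sgScr 2 rose (*FRS2* and *PLCG1*), beside 12.2%. In sgScr against *LA* *SHC1* was higher while *FRS2* and *PLCG1* were lower, beside 10.6% and 12.3%. With the correction *PLCG1* lost its call in both (edgeR adjusted p of 0.291 and 0.115), and *CRKL* became called higher in sgScr against *LA* (0.31, SE 0.07, edgeR adjusted p = 0.0248).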

How the data were processed

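RNA-seq counts of 9 A549 libraries were used. The authors deposited unnormalized read counts per gene in a single table. The submitters' processing notes name STAR 2.7.10b, DESeq2 1.26.0 and hg19. The program, annotation and strand setting of the counting are not given in the sources used here. Totals ran from 14507228 to 20456341 counts. Of 26364 names, 28 looked like dates, an artefact of spreadsheets, and 0 sample columns were left unused.

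The whole table was fitted in R 4.3.3 with edgeR 4.0.16 (TMM scaling, filterByExpr, quasi-likelihood F test, two-sided, Benjamini-Hochberg over all genes tested, called at 0.05), with only the libraries compared in each of 4 comparisons, and only rows of the members were read. The SE was taken as the absolute log2 fold change over the square root of F. For the correction, a loess curve (span 0.5) of log counts on log transcript length and GC content of the canonical transcript (GENCODE v44lift37 on GRCh37) entered as an offset per library. It was available for 24693 names (22494 by symbol, 1337 by older symbol, 862 by gene number). For members under the filter, a floor of 3 counts per library and 95% exact binomial intervals of count ratios were used, which cover counting error only since no molecular identifiers were counted. Alternatives were DESeq2 1.42.0, other scalings, filters and thresholds, a fit of all 9 libraries, a block for replicate number, the correction, and each replicate left out. The procedure was tested on simulated data, and Python 3.11.15 was used for tables and figures.

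The members and gene lists were chosen with earlier results of these data known. Every member could be named. Members were also grouped by role, and only the groups of RNA and translation and of matrix and secreted proteins are described. Both groups are small, and their shares are not a result about those roles. Counts per library were given for *ALK*, *LOC388942*, *SLC8A1*, *CLIP4*, *PKDCC*, *EML4* and *STRN*, for members called in *LA* against control, for those with the largest called changes elsewhere, and for those whose call ended or direction turned with the correction (the largest 6 where more than 8 did so in a comparison). *RASGRP3* and *YIPF4* were singled out after their values were seen, as were the values of *XDH* and *CDC42EP3* in *LA*.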

Additional observations from a re-analysis of the deposited data

How the results depend on the processing

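Of 46 members, 10 were called in *LA* against control. The number was 5 at an adjusted p under 0.01, 21 at an absolute log2 fold change over 0.5 with an unadjusted p under 0.05, 24 with all 9 libraries in a single fit, 6 with the replicate block, and 0 to 20 when a replicate was left out, where a lone library was assumed to vary like the other group. In sgScr against control (22 called) it was 8 at an adjusted p under 0.01 and 0 to 36 with a replicate left out. In sgFOS against sgScr (15 called) it was 3 with the fold threshold, 0 with all 9 libraries, and 10 to 16 with a replicate left out. In sgScr against *LA* (10 called) it was 2 at an adjusted p under 0.01, 5 with all 9 libraries, 5 with the replicate block, and 1 to 38 with a replicate left out. DESeq2 called 11, 25, 12 and 14 members. The share of all genes called in each of these alternative fits is not given here. The counts therefore describe the fits and not a property of the members.

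The members' median in *LA* against control, 0.28, became -0.16 corrected, -0.17 corrected with the replicate block, -0.31 with the median transcript length, and -0.18 to 0.63 with a replicate left out. In sgScr against control it was -0.12, and -0.24 to 0.18 with a replicate left out. In sgScr against *LA* it was 0.084, 0.028 with the median transcript length, and 0.021 to 0.16 with a replicate left out.

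With the correction 11 members turned direction in *LA* against control, 7 in sgScr against control, 4 in sgFOS against sgScr and 1 in sgScr against *LA*. In *LA* against control *SPAST* (-0.14), *LTBP1* (-0.15), *PRKD3* (-0.39), *DHX57* (-0.53), *EHD3* (-0.14), *SLC30A6* (-0.19) and *ATL2* (-0.069) were among them and not called. In sgScr against control *SPAST* (-0.42), *SLC30A6* (-0.44), *PRKD3* (-0.39), *DHX57* (-0.39) and *MTA3* (-0.49) turned and were then called lower, and *EHD3* (-0.28) was not. The others are given in the order corrected, corrected with the replicate block, and median transcript length. In *LA* against control they were *STRN* (-0.16, -0.17, -0.34), *EIF2AK2* (-0.17, -0.17, -0.37), *EML4* (-0.098, -0.11, -0.074) and *SLC8A1* (-0.12, -0.12, 0.81). With the median transcript length *SLC8A1* thus kept its direction. In sgScr against control *CLIP4* was -0.015 with the median transcript length, *STRN* -0.0037 corrected with the block and -0.13 with the median transcript length, and *PKDCC*, at -0.016, was 0.57, 0.68 and 0.34, 0.16 by library size alone, 0.0047 with no filter, 0.037 with the block, and -0.087 to 0.058 with a replicate left out (0.036 without sgScr replicate 3). In sgFOS against sgScr *LCLAT1* was 0.016 and 0.0097, and -0.068 to 0.031 with a replicate left out, *SLC30A6* was 0.01, 0.027 and 0.0062, and 0.028 without sgFOS replicate 2, and *EIF2AK2* was 0.015 and 0.039, and 0.026 without sgFOS replicate 2. *GALM*, at 0.0056, was -0.014, -0.017 and -0.0051, -0.0025 with upper quartile scaling, -0.00051 with no filter, -0.00039 with the block, and -0.025 to 0.038 with a replicate left out. In sgScr against *LA* *BIRC6* was 0.032 and 0.0017, and *STRN* was -0.091 without *LA* replicate 2 and 0.43 without *LA* replicate 1. The cause was not tested.

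Replicate numbers did not pair the libraries. Deviations of same-numbered libraries correlated at -0.289 in *LA* against control and between -0.173 and 0.0675 in the other comparisons, over 11900 genes. The replicate block called 15 members each in sgScr against control and sgFOS against sgScr. The crossed pairing of *LA* and control, added after seeing the data, called 13. Members with few counts, such as *ALK*, are limited by depth.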
